A study of Mus musculus with 12 samples.

Results

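The genes of cholesterol and fatty acid synthesis were followed in tumour-associated macrophages (TAMs) that had or had not taken up nanoparticles in a mouse glioma. The set holds 36 genes, listed by symbol, of 54532 genes in the count table. They comprise 19 enzymes of the sterol branch, 11 enzymes of the fatty acid branch, and a group of 6 genes made of 1 sterol carrier and 5 regulators. All 36 were found, and 35 had enough counts to be tested. Each of 6 mice gave a sort of cells that carried rhodamine (rhodamine-positive) and a sort of cells that did not (rhodamine-negative), so that there are 6 libraries of each and every comparison is within a mouse. All mice carried a glioma, had the genotype labelled Ntv-a_Ink4a/Arf_KO, and had received rhodamine-labelled perfluoro-crown-ether nanoparticles into a vein 24 hours before the tumour was taken. In Ntv-a mice the nestin promoter drives a receptor for avian retroviral vectors in neural progenitors, and Ink4a/Arf is a tumour suppressor locus; how the gliomas were induced is not given in the sources used here. No group without nanoparticles was part of the data used here, and the labels give no age. By the labels, mice 1 to 4 were male, and the females were mice 5 and 6. The cells were gated as positive for CD45 and CD11b, surface proteins of leukocytes and of myeloid cells, and as negative for Ly6C, a monocyte marker. The comparison asks how TAMs that took up the particles differ from those that did not.

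Cells build cholesterol from acetyl-CoA through mevalonate, farnesyl diphosphate and squalene, and fatty acids from acetyl-CoA through malonyl-CoA, after which desaturases and elongases shape the chains. Both routes are controlled by the sterol regulatory element-binding proteins (SREBPs), which are held in the endoplasmic reticulum by Scap and Insig proteins when sterol is plentiful and are cut free when it is scarce. SREBP-2, the product of Srebf2, acts mainly on sterol genes, and SREBP-1, the product of Srebf1, mainly on fatty acid genes. Macrophages that digest lipid-rich material receive cholesterol through their lysosomes, which is known to hold SREBP processing down.

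The 12 libraries of polyadenylated RNA held 13073189 to 17379314 counts. Defining macrophage genes were abundant in every library: Csf1r, the receptor of the macrophage growth factor, had at least 31918 counts, Cd68 at least 12041 and Itgam, which encodes CD11b, at least 2538, while the neutrophil marker Ly6g had 1 count in all. The rhodamine-negative library of mouse 5 stood apart. Its 11 dendritic cell markers summed to 1852 CPM (counts scaled to library size, with TMM factors), against 494 to 912 CPM in the other rhodamine-negative libraries, and its 13 microglia markers summed to 6543 CPM, against 12433 to 21268 CPM in the others. Its sums were also the highest for monocyte, basophil and mast cell, and lymphocyte and NK markers, and the lowest for macrophage and gate markers. This library held the highest level of the 6 rhodamine-negative libraries for 19 of the 35 members tested, and for 26.0% of all genes tested. Results that rest on mouse 5 are therefore given with and without it. Because the sorts are bulk samples, fewer cells of a type and less RNA per cell cannot be told apart. All 11 dendritic cell markers tested were lower in rhodamine-positive sorts (summed level 181 to 324 CPM in rhodamine-positive sorts and 494 to 1852 CPM in rhodamine-negative sorts). All 18 cell cycle genes were higher (1124 to 1640 CPM in rhodamine-positive sorts, 797 to 981 CPM in rhodamine-negative sorts). Of 17 immediate early genes, which are known to respond quickly to stimulation, 15 were lower (8373 to 12232 CPM in rhodamine-positive sorts and 13624 to 19460 CPM in rhodamine-negative sorts). Microglia markers were higher in 4 of 13 and macrophage and gate markers in 4 of 9 tested, with 1 of the 9 lower. Monocyte markers were lower in 3 of 8, lymphocyte and NK markers in 2 of 4, basophil and mast cell markers in 4 of 4, and astrocyte and neuron markers in 3 of 8 tested. Oligodendrocyte lineage and glioma markers were lower in 6 and higher in 1 of 12 tested, with summed levels of 232 to 314 CPM in rhodamine-positive sorts and 263 to 328 CPM in rhodamine-negative sorts. The part of these differences in the results below was not tested.

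In nanoparticle-positive TAMs, genes of the pathway were found higher and lower at once, in the sterol as well as in the fatty acid branch. In edgeR's quasi-likelihood test with the mouse as a block and Benjamini-Hochberg adjustment over all 15014 genes tested (threshold 0.05), 7 members were higher, 8 were lower and 20 did not pass. The 15 members that passed are 42.9% of the 35 tested, beside 26.2% of all genes tested. Higher members were 20.0% of those tested, against 13% of all genes, and lower members 22.9%, against 13.2% of all genes. The median log2 fold change of the members was -0.08, beside -0.02 for all genes. In 9 of the 15 the direction was the same in all 6 mice. The same count over all genes that passed was not made, so it does not set the members apart. Between the groups of libraries, however, only 3 members, Ebp, Pmvk and Fads2, did not overlap, which is 8.57% of the members tested and 8.81% of all genes. The higher genes were Hmgcs1, Fdft1, Ebp and Dhcr7 in the sterol branch and Acly, Scd2 and Fads1 in the fatty acid branch. The lower genes were Pmvk and Cyp51 in the sterol branch, Scd1, Elovl5, Elovl6 and Fads2 in the fatty acid branch, and the carrier gene Stard4 and the regulator gene Srebf2. Each log2 fold change is the rhodamine-positive level minus the rhodamine-negative level, from 6 pairs, with its standard error (SE). Without mouse 5, 5 of the 35 members were higher, against 10.6% of all genes, and 5 were lower, against 10.4% of all genes. In both directions there were 10, beside 21% of all genes. Only 1 of the 5 lower members was then in the fatty acid branch. Without the mouse as a block, 5 were higher and 6 lower, against 8.46% and 9.31% of all genes (17.8% in both directions). With library size alone in place of TMM factors, 2 were higher and 10 lower, against 5.67% and 20.9% of all genes (26.6% in both directions). In the 4 male mice alone, 5 were higher and 1 was lower, against 6.64% and 8.07% of all genes (14.7% in both directions).

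**Figure D1:**
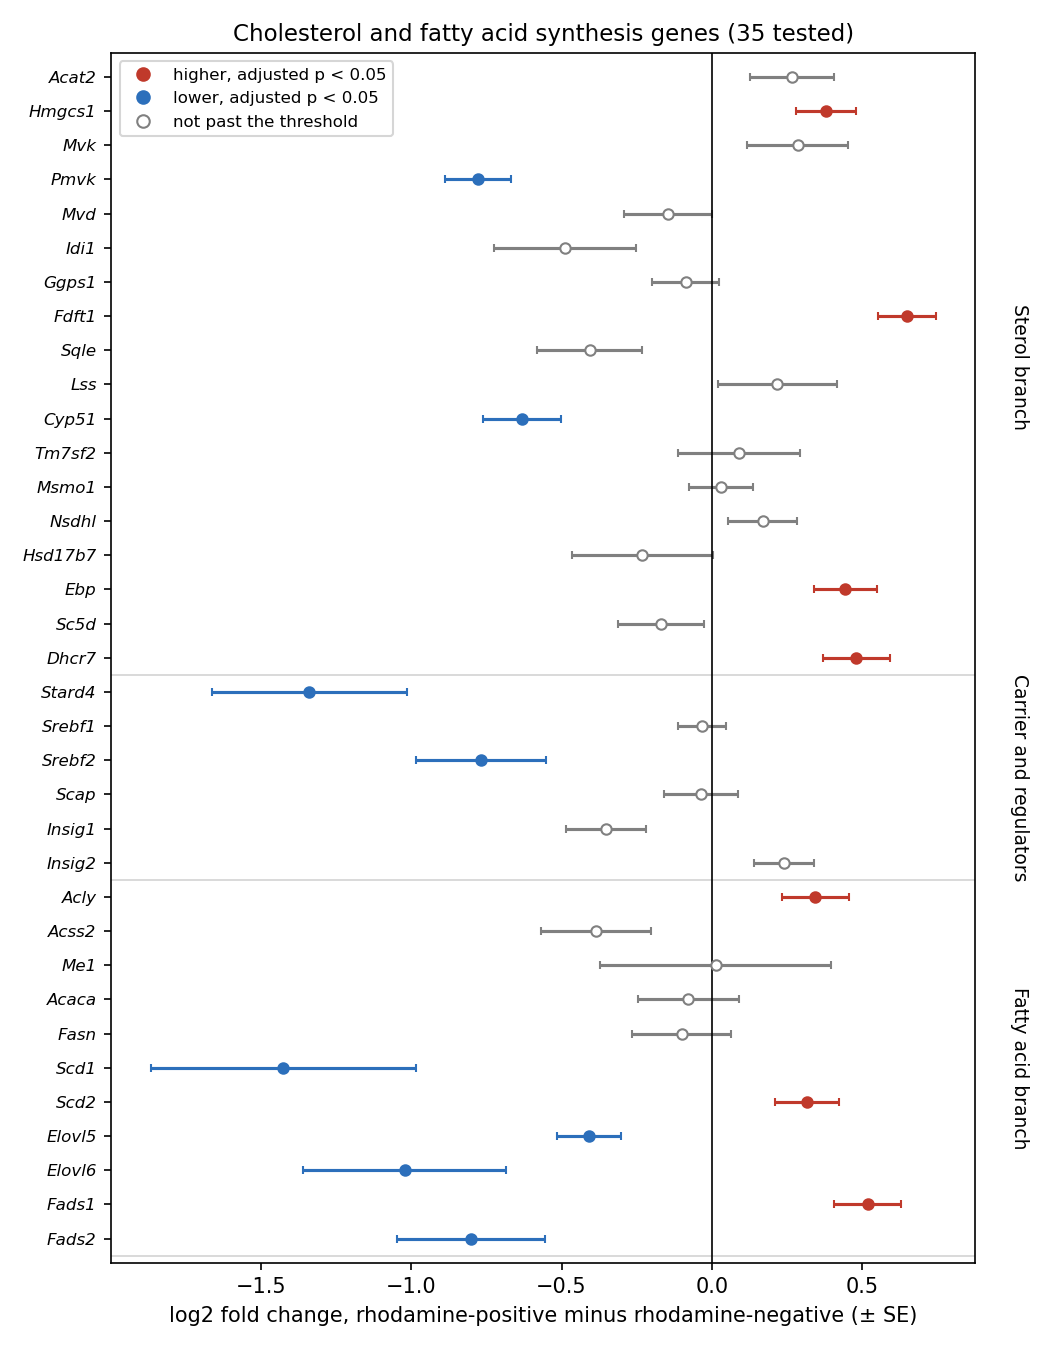
Log2 fold change ± SE (rhodamine-positive minus rhodamine-negative, 6 pairs) of the 35 members tested, by branch. Filled points passed the threshold (7 higher in red, 8 lower in blue) and open grey points did not; calls of both directions stand in the sterol and the fatty acid branch.

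The sterol branch starts with the mevalonate steps. Hmgcs1, which encodes the synthase that joins acetyl-CoA to acetoacetyl-CoA, had 35.5 to 45.4 CPM in rhodamine-positive sorts (median 39.7), against 25.6 to 37.4 CPM in rhodamine-negative sorts (median 30.8). It was higher in all 6 mice, although the groups overlapped, and rose by 0.38 ± 0.10 (adjusted p = 0.0159). The call was lost on leaving out mouse 3 (adjusted p = 0.0673) and with library size alone in place of TMM scaling (adjusted p = 0.116). An antisense gene, Gm48342, shares 557 exonic bases with Hmgcs1, and since the strand setting of the counting is not given in the sources used here, reads of the shared bases cannot be assigned with certainty.

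Pmvk, the phosphomevalonate kinase, went the other way. Its level was 22.0 to 34.0 CPM in rhodamine-positive sorts (median 32.9), against 38.6 to 76.4 CPM in rhodamine-negative sorts (median 49.1). Every rhodamine-positive library lay below every rhodamine-negative one. Pmvk fell by 0.78 on the log2 scale (SE 0.11, adjusted p = 0.000506, 1.71-fold lower), and it passed under all 17 other settings, with estimates of -0.94 to -0.68. The other 4 mevalonate genes did not pass. The thiolase Acat2 and mevalonate kinase Mvk had estimates of 0.27 ± 0.14 and 0.28 ± 0.17, and the decarboxylase Mvd and the isomerase Idi1 had -0.15 ± 0.15 and -0.49 ± 0.24. For Idi1 the highest value was the rhodamine-negative library of mouse 5, at 9.80 CPM, and without this mouse the estimate was -0.30.

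The isoprenoid steps could be read in part only. Fdps, the farnesyl diphosphate synthase, had 0, 0, 7, 1, 0 and 3 counts in the rhodamine-positive libraries of mice 1 to 6, against 4, 17, 5, 2, 17 and 3 counts in the rhodamine-negative libraries. These counts did not pass the filter on low values. Without a filter its estimate was -2.06 (SE 1.03, adjusted p = 0.232), and in limma on the deposited log2 table it was -2.17 (SE 0.79, adjusted p = 0.0587), so that Fdps passed in neither. A gene model on the same strand, Gm43738, shares 1124 of the 4208 exonic bases of Fdps (26.7%), and the part of this overlap in the low counts was not tested. Ggps1, which makes the geranylgeranyl diphosphate used to anchor small GTPases in membranes, had 25.0 to 37.1 CPM in rhodamine-positive sorts (median 29.3), against 29.2 to 32.9 CPM in rhodamine-negative sorts (median 32.1), with an estimate of -0.09 ± 0.11 that did not pass (adjusted p = 0.597).

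At squalene the pathway commits to sterols. Fdft1, the squalene synthase, had 72.9 to 132 CPM in rhodamine-positive sorts (median 108), against 59.0 to 89.6 CPM in rhodamine-negative sorts (median 65.1). It was higher in all 6 mice, and only the rhodamine-positive library of mouse 6 lay among the rhodamine-negative ones. It rose 1.57-fold, or by 0.65 ± 0.10 on the log2 scale (adjusted p = 0.000711), and passed under all 17 other settings. The value is uncertain in 1 respect. Fdft1 (chromosome 14, positions 63145150 to 63179578, minus strand, mm10) shares 774 exonic bases, 18.3% of its exonic length, with Ctsb on the opposite strand. Ctsb, which encodes the lysosomal protease cathepsin B, had 17299 to 20667 CPM in rhodamine-positive sorts and 5391 to 11140 CPM in rhodamine-negative sorts, and rose by 1.10 ± 0.12 (adjusted p = 0.000112). Counts of Fdft1 were 0.408 to 0.640% of those of Ctsb in rhodamine-positive libraries and 0.621 to 1.10% in rhodamine-negative libraries. The part of Ctsb reads in the level of Fdft1 was not tested. Neither of the next enzymes passed. Sqle, the squalene epoxidase, is a rate-limiting enzyme of the pathway and had 7.49 to 9.35 CPM in rhodamine-positive sorts (median 8.44), against 8.29 to 17.9 CPM in rhodamine-negative sorts (median 10.8). Its estimate was -0.41 ± 0.17 (adjusted p = 0.109); with library size alone it passed as lower (adjusted p = 0.0385). The highest level was that of mouse 5, without which the estimate was -0.26 (adjusted p = 0.30). Lss, the lanosterol synthase, had an estimate of 0.22 ± 0.20. Exonic bases are shared with other genes by further members as well, among them Ggps1 (257 bases with Arid4b), Tm7sf2 (532 bases with Vps51) and Scap (985 bases with 5830462I19Rik).

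Of the 8 genes that turn lanosterol into cholesterol, 2 were higher, 1 was lower and 5 did not pass. Cyp51, the lanosterol demethylase, had 12 to 21.8 CPM in rhodamine-positive sorts (median 16.9), against 19.3 to 46.3 CPM in rhodamine-negative sorts (median 24.8). The fall was seen in all 6 mice and was 0.63 on the log2 scale (SE 0.13, adjusted p = 0.00452). Without mouse 5, whose rhodamine-negative library was the highest, it fell by 0.53 and still passed, and in male mice alone it did not (-0.48, adjusted p = 0.0506). Cyp51 shares 166 exonic bases with Akap9 on the opposite strand, which fell by 0.48 (SE 0.09, adjusted p = 0.00266).

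Ebp and Dhcr7 act late in the route, as a sterol isomerase and a sterol reductase. Ebp had 83.1 to 103 CPM in rhodamine-positive sorts (median 92.5), against 49.6 to 81.1 CPM in rhodamine-negative sorts (median 69.1). Every rhodamine-positive library lay above every rhodamine-negative one, by a narrow margin, and the rise was 0.44 ± 0.11 (adjusted p = 0.0101). In the rhodamine-negative sorts the lowest value was that of mouse 5, and without this mouse the rise was 0.35 and passed. Dhcr7 had 22.1 to 26.7 CPM in rhodamine-positive sorts (median 24.1), against 14.9 to 22.7 CPM in rhodamine-negative sorts (median 16.7). It was higher in all 6 mice, with the rhodamine-negative library of mouse 5 inside the rhodamine-positive range, and rose by 0.48 ± 0.11 (adjusted p = 0.00904). With library size alone neither passed (adjusted p = 0.0601 for Ebp and 0.0646 for Dhcr7), nor did Ebp in male mice alone (adjusted p = 0.0822). The 5 others had estimates between -0.23 (Hsd17b7, a ketoreductase) and 0.17 (Nsdhl, a decarboxylating dehydrogenase), with Tm7sf2, a sterol reductase, at 0.09 ± 0.20, Msmo1, a methyl oxidase, at 0.03 ± 0.11 and Sc5d, a desaturase, at -0.17 ± 0.14 (-0.07 without mouse 5).

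**Figure D2:**
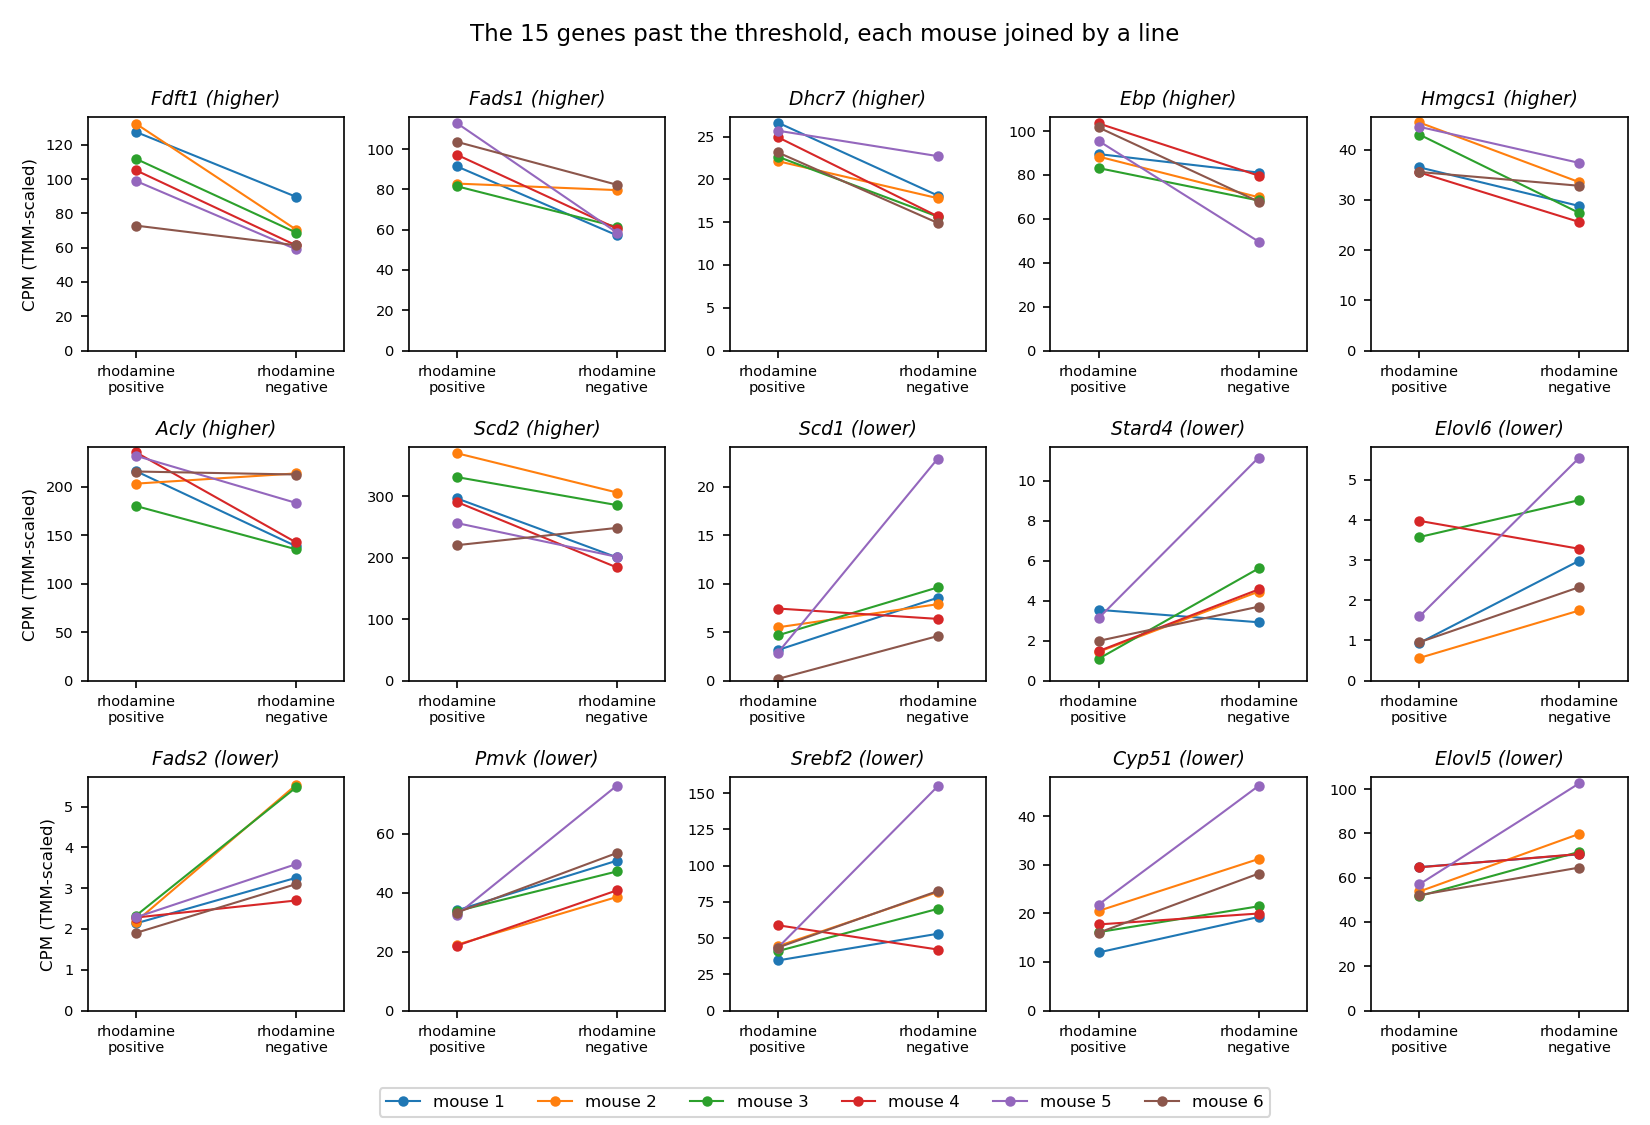
CPM (TMM-scaled) of the 15 members past the threshold in rhodamine-positive (left) and rhodamine-negative (right) sorts, 1 line per mouse. Pmvk, Cyp51, Elovl5 and Fads2 fall and Fdft1, Fads1, Dhcr7, Ebp and Hmgcs1 rise in all 6 mice, and the rhodamine-negative library of mouse 5 (purple) is the highest for Srebf2, Cyp51, Pmvk, Scd1, Stard4, Elovl5 and Elovl6.

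Among the regulators, only Srebf2 passed. Its level was 34.5 to 58.9 CPM in rhodamine-positive sorts (median 43.3), against 42.1 to 155 CPM in rhodamine-negative sorts (median 76.0). Levels were lower in 5 mice, by the most in mouse 5 (43.2 CPM in the rhodamine-positive sort, against 155 CPM in the rhodamine-negative sort), and higher in mouse 4 (58.9 CPM in the rhodamine-positive sort and 42.1 CPM in the rhodamine-negative sort). It fell by 0.77 on the log2 scale (SE 0.22, adjusted p = 0.0225), and by 0.54 without mouse 5, where it still passed. Leaving out mouse 2, 3 or 6 ended the call (adjusted p = 0.0561, 0.0596 and 0.0663), as did male mice alone, where the estimate was -0.46 (adjusted p = 0.145). Srebf1 had 67.0 to 86.8 CPM in rhodamine-positive sorts (median 73.2), against 64.7 to 87.8 CPM in rhodamine-negative sorts (median 75.2), and its estimate of -0.03 ± 0.08 did not pass (adjusted p = 0.797). The counts do not separate the transcripts of Srebf1 that start at different promoters. Scap, the escort of the SREBPs, had 33.9 to 49.3 CPM in rhodamine-positive sorts (median 41.4), against 33.0 to 53.8 CPM in rhodamine-negative sorts (median 41.7) and an estimate of -0.04 ± 0.12 (0.07 without mouse 5).

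The Insig genes encode the proteins that retain the SREBP-Scap complex in the endoplasmic reticulum, and Insig1 is itself a target of SREBPs. Insig1 had 13.4 to 31.6 CPM in rhodamine-positive sorts (median 20.9), against 19.4 to 36.5 CPM in rhodamine-negative sorts (median 28.0). It was lower in 5 mice, without passing (estimate -0.35 ± 0.13, adjusted p = 0.072). It passed as lower with library size alone, with a gene length offset, with an offset for GC content and gene length, and without mouse 4 (adjusted p = 0.0160, 0.0463, 0.0443 and 0.0260). Insig2 had 33.0 to 41.6 CPM in rhodamine-positive sorts (median 37.4), against 25.9 to 40.1 CPM in rhodamine-negative sorts (median 31.4). Its estimate of 0.24 ± 0.10 did not pass (adjusted p = 0.101). The level was higher in all 6 mice, but by very little in mouse 4 (0.006 in log2 CPM) and mouse 1 (0.05), and by up to 0.52 in mouse 5. Stard4, which encodes a cytosolic carrier of cholesterol between membranes, had 1.09 to 3.54 CPM in rhodamine-positive sorts (median 1.73), against 2.92 to 11.2 CPM in rhodamine-negative sorts (median 4.51). Only in mouse 1 was it higher, and over the 6 mice it fell by 1.34 (SE 0.33, adjusted p = 0.011). Without mouse 5 the fall was 1.22 and passed, and in male mice alone it was 1.32 and did not (adjusted p = 0.0723). Stard4 had only 14 to 171 counts per library.

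Promoter sequences were read for 29 members with an entry in the RefSeq promoter table (GRCm38.p6), in the 250 bases before each start. To show what the genes of either direction carry at their starts, they are printed for Dhcr7 and Ebp, the 2 members with an entry that rose the most, and for Elovl6 and Pmvk among those that fell. Hmgcs1 and Srebf2 were added after their values were seen. Bases inside the gene as GENCODE annotates it were left off. Capitals mark the motifs searched on both strands: the sterol response element core TCACNCCAC, the E-box CACGTG, the NF-Y box CCAAT and the Sp1 box GGGCGG. A motif on the other strand is marked where its complement stands. The motifs can overlap, and each sequence runs 5′ to 3′ on the gene's strand.
Hmgcs1 (chr13:119690101-119690350, plus strand): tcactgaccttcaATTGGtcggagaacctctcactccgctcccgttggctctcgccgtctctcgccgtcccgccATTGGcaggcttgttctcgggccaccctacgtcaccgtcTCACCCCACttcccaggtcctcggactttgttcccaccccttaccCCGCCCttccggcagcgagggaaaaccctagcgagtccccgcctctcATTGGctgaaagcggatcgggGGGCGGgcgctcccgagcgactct
Ebp (chrX:8193513-8193762, minus strand): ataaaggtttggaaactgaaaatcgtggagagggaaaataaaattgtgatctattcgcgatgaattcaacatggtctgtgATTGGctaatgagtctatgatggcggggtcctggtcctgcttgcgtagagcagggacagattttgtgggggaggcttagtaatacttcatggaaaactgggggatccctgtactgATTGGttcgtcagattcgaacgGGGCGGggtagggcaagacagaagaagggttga
Dhcr7 (chr7:143822917-143823144, plus strand): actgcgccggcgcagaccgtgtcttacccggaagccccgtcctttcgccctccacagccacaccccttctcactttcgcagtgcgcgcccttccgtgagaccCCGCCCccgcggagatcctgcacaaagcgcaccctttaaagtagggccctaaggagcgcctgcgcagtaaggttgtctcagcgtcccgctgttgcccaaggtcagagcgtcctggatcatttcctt
Pmvk (chr3:89454291-89454540, plus strand): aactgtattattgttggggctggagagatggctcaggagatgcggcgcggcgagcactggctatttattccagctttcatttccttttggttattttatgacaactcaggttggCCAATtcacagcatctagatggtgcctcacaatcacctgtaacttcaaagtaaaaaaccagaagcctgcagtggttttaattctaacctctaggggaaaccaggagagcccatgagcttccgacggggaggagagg
Srebf2 (chr15:82147019-82147180, plus strand): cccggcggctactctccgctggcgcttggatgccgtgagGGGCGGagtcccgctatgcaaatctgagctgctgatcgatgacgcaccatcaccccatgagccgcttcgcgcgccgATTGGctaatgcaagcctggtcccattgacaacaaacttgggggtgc
Elovl6 (chr3:129532136-129532354, plus strand): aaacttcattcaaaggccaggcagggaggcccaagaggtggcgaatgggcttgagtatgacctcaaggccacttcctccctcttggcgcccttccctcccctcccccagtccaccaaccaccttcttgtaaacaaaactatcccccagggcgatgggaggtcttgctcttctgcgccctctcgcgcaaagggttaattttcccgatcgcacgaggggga
The 29 members have 38 promoters in the table, since some have several starts, and the search took in all 250 bases of each. The sterol response element core was found in 1 of the 38, that of Hmgcs1, where TCACCCCAC begins 137 bases before the start, and in 1.05% of the 32851 promoters of the table. The NF-Y box, the site of a factor that is known to act beside SREBPs, was found in 24 of the 38 (63.2%) and in 33.8% of all promoters. The Sp1 box was found in 26 of the 38 (68.4%) and in 32.7% of all promoters, and the E-box in 6 of the 38 (15.8%) and in 6.02%. Among the 6 sequences printed, each for 1 start, the NF-Y box stands in those of Hmgcs1 and Ebp, which rose, and of Pmvk and Srebf2, which fell. The printed sequence of Dhcr7 holds an Sp1 box alone, and that of Elovl6 none of the motifs. Other starts of these genes differ. For Dhcr7, the promoter from position 143829964 holds NF-Y and Sp1 boxes, and that from 143823149 an E-box. For Pmvk, the promoter from 89459321 holds none of the motifs. These matches are descriptions of letters, not of binding. Only exact matches were searched, so sites that differ from these letters were not counted.

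The fatty acid branch starts with the supply of acetyl-CoA and NADPH. Acly, the ATP-citrate lyase, which makes cytosolic acetyl-CoA for both branches, had 180.1 to 235 CPM in rhodamine-positive sorts (median 216), against 135 to 214 CPM in rhodamine-negative sorts (median 163). It was higher in 5 mice and lower in mouse 2, and rose by 0.34 ± 0.11 (adjusted p = 0.0406). The call ended on leaving out mouse 1, 3, 4 or 5 (adjusted p = 0.117, 0.110, 0.107 and 0.0522), with no block for the mouse (adjusted p = 0.110), in male mice alone (adjusted p = 0.0506) or with library size alone (adjusted p = 0.247). Acss2, which makes acetyl-CoA from acetate, and the malic enzyme Me1, a source of NADPH, had estimates of -0.39 ± 0.18 and 0.01 ± 0.38 and did not pass. Me1 had only 5 to 46 counts per library.

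The enzymes that build the chain itself did not pass. Acaca, the carboxylase that makes malonyl-CoA, had 11.5 to 26.6 CPM in rhodamine-positive sorts (median 24.3), against 16.2 to 29.2 CPM in rhodamine-negative sorts (median 22.1). Its estimate was -0.08 ± 0.17 (adjusted p = 0.769). Fasn, the fatty acid synthase, had 58.1 to 98.4 CPM in rhodamine-positive sorts (median 76.3), against 58.6 to 106 CPM in rhodamine-negative sorts (median 92.0), and its estimate was -0.10 ± 0.17 (adjusted p = 0.69). Without mouse 5 both estimates turned positive, to 0.08 for Acaca and 0.03 for Fasn. Both genes were lower in each of the 2 female mice. The mean difference in log2 CPM for Fasn was -0.68 in female and 0.19 in male mice, and for Acaca it was -0.65 in female and 0.20 in male mice. The sort by sex interaction of edgeR passed for none of the 35 members and for 0% of all genes. At an unadjusted p under 0.05 it held 5 of the 35 members, namely Scd1, Fasn, Acaca, Ebp and Srebf2, and 7.73% of all genes. Fasn had an interaction of -0.87 ± 0.24 (female minus male, adjusted p = 0.562). In DESeq2 the interaction was called for 28 genes, among them Scd1 (adjusted p = 0.0129), in limma-voom for none, and in edgeR without a filter for 119 genes, among them Scd1, Fasn and Srebf2. With 2 female mice, the sexes rest on few animals.

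All 6 desaturase and elongase genes of the set passed, 2 higher and 4 lower, beside 26.2% of all genes that passed in either direction. Scd1 and Scd2, and likewise Fads1 and Fads2, went in opposite directions, while both elongases of the set fell. Outside the set, the more abundant elongase gene Elovl1 rose by 0.45 (SE 0.09, adjusted p = 0.00525). It averaged 221 CPM in rhodamine-positive and 163 CPM in rhodamine-negative sorts. Fads3, also outside the set, had an estimate of -0.04 (SE 0.26) and did not pass. Scd2 and Scd1 encode stearoyl-CoA desaturases, which make monounsaturated from saturated fatty acids, and lie near each other on chromosome 19. Scd2 had 220.4 to 370.2 CPM in rhodamine-positive sorts (median 294), against 184 to 306 CPM in rhodamine-negative sorts (median 225). It was higher in 5 mice and lower in mouse 6, and rose by 0.31 ± 0.11 (adjusted p = 0.0466). Scd1 had 0.159 to 7.43 CPM in rhodamine-positive sorts (median 3.90), against 4.59 to 22.9 CPM in rhodamine-negative sorts (median 8.22). It was lower in 5 mice and higher in mouse 4, and fell by 1.43 on the log2 scale (SE 0.44, adjusted p = 0.0331). Scd4, another gene of this family that is not in the set, fell by 2.26 (SE 0.62, adjusted p = 0.0190), with 0 to 36 counts per library. The sequences of the family are alike, so reads could be split between its genes, and these values are uncertain to that extent.

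Neither of the Scd calls was stable. The fall of Scd1 was 1.09 without mouse 5 and did not pass (adjusted p = 0.0911). Leaving out mouse 1, 3 or 6 also ended it (adjusted p = 0.0748, 0.0654 and 0.0649), as did a fit with no mouse block (adjusted p = 0.0886), and in male mice alone its estimate was -0.69 (adjusted p = 0.135). The call of Scd2 was lost under 10 of 17 settings: on leaving out mouse 1, 2, 3, 4 or 5 (adjusted p = 0.128, 0.0829, 0.0904, 0.126 and 0.0630), with no mouse block (adjusted p = 0.175), and on the deposited log2 table, with DESeq2 size factors and with a stricter filter (adjusted p = 0.0573, 0.0532 and 0.0526). With library size alone, the last of these, it had an estimate of 0.15 (adjusted p = 0.295).

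Fads1 and Fads2, the desaturases that act in turn on polyunsaturated fatty acids, are neighbours on chromosome 19 as well. Fads1 had 81.6 to 113 CPM in rhodamine-positive sorts (median 94.3), against 57.2 to 82.3 CPM in rhodamine-negative sorts (median 61.0). It was higher in all 6 mice, by little in mouse 2, and only the rhodamine-positive library of mouse 3 lay inside the rhodamine-negative range. It rose 1.43-fold, or by 0.52 ± 0.11 (adjusted p = 0.00616), and passed under all 17 other settings. Fads2 had 1.90 to 2.33 CPM in rhodamine-positive sorts (median 2.23), against 2.70 to 5.54 CPM in rhodamine-negative sorts (median 3.42). The groups did not overlap. Fads2 fell by 0.80 (SE 0.25, adjusted p = 0.0321). It had only 24 to 92 counts per library, and the call ended on leaving out mouse 1, 2, 3, 5 or 6 (adjusted p = 0.0561, 0.0855, 0.106, 0.0589 and 0.0651), in male mice alone (adjusted p = 0.106) or without a filter (adjusted p = 0.0543).

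The elongases lengthen fatty acids, Elovl5 mainly polyunsaturated and Elovl6 mainly saturated and monounsaturated chains. Elovl5 had 51.7 to 64.8 CPM in rhodamine-positive sorts (median 55.4), against 64.6 to 103 CPM in rhodamine-negative sorts (median 71.2). All 6 mice shared the fall, of 0.41 (SE 0.11, adjusted p = 0.0159). Without mouse 5 the fall was 0.31 and passed, and without mouse 3 or in male mice alone it did not pass (adjusted p = 0.0542 and 0.0746). Elovl6 had 0.561 to 3.97 CPM in rhodamine-positive sorts (median 1.27), against 1.74 to 5.55 CPM in rhodamine-negative sorts (median 3.13). Mouse 4 alone had a higher level in its rhodamine-positive sort, and the fall was 1.02 (SE 0.34, adjusted p = 0.0437). This call too was lost on leaving out mouse 1, 2, 3, 5 or 6 (adjusted p = 0.112, 0.0919, 0.0574, 0.131 and 0.101), in limma-voom (adjusted p = 0.0741), with no mouse block (adjusted p = 0.230), in male mice alone (adjusted p = 0.265) or with the GC content and gene length offset (adjusted p = 0.0503).

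**Figure D3:**
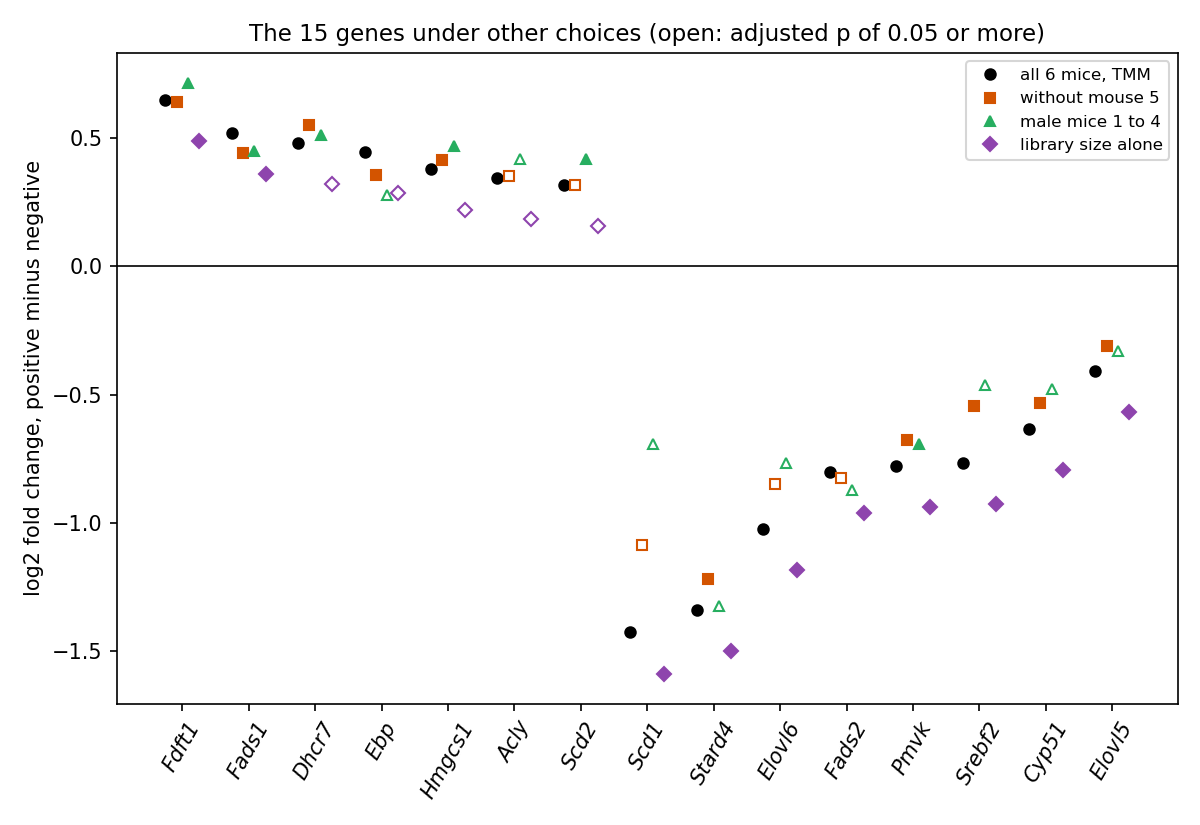
Log2 fold change (rhodamine-positive minus rhodamine-negative) of the 15 members past the threshold, with all 6 mice, without mouse 5, in male mice alone and with library size alone; open symbols did not pass. No member changes sign, and with library size alone only Fdft1 and Fads1 remain above the threshold among the 7 that rose.

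Set against each other, the branches did not differ in a way that all mice shared. Of all genes tested, 13% were higher and 13.2% lower, with a median log2 fold change of -0.02. In the sterol branch 4 of 18 genes tested were higher (22.2%) and 2 lower (11.1%), with a median of 0.06; the lower share is near that of all genes. In the fatty acid branch 3 of 11 were higher (27.3%) and 4 lower (36.4%), with a median of -0.10. Of the carrier and regulators none of 6 was higher and 2 were lower, with a median of -0.19. The median of the differences within a mouse was, for the fatty acid branch, 0.24, -0.27, -0.09, 0.27, -0.70 and -0.31 in mice 1 to 6, and for the sterol branch -0.07, 0.16, 0.05, 0.09, 0.11 and 0.02. The sterol median thus varied less between mice than the fatty acid median (SD 0.0819 and 0.369, beside 0.0206 for all genes). The fatty acid median was lowest in the 2 female mice and mouse 2. Some sterol genes varied more than their median, such as Lss (-0.25 to 0.92 over the 6 mice) and Idi1 (-1.31 to 0.04). The sterol median was above the fatty acid median in mice 2, 3, 5 and 6 and below it in mice 1 and 4. Without mouse 5, 1 fatty acid gene was higher and 1 lower, against 10.6% and 10.4% of all genes. The fatty acid median was then 0.03, the opposite sign. Scaling by library size alone put the sterol median at -0.10 and that of all genes at -0.18. No test was made of these medians, since the genes were chosen with results of these data known.

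**Figure D4:**
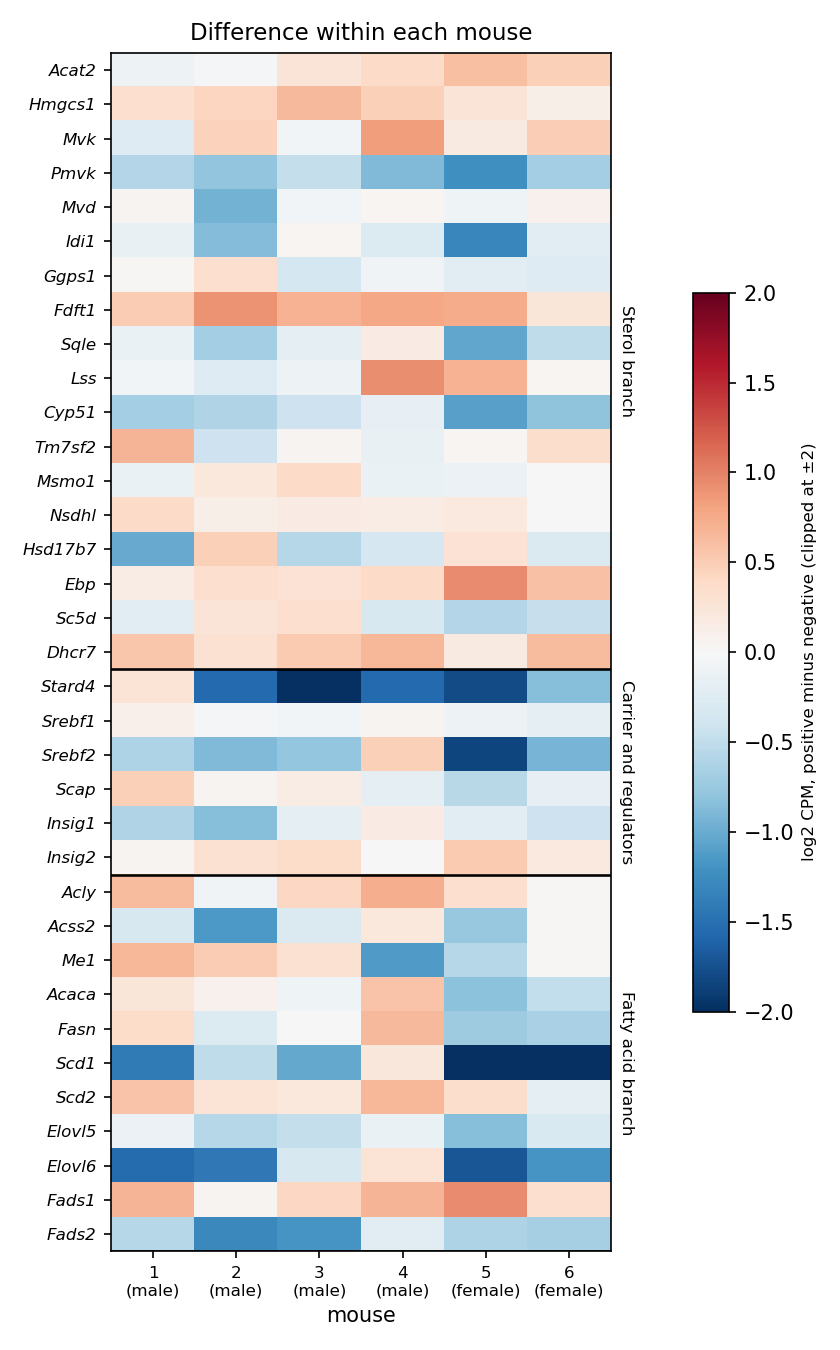
Difference in log2 CPM within each mouse (rhodamine-positive minus rhodamine-negative) for the 35 members tested, by branch; red is higher and blue lower in the rhodamine-positive sort, clipped at 2. Fdft1, Hmgcs1, Dhcr7, Ebp and Fads1 are red and Pmvk, Cyp51, Elovl5 and Fads2 blue in every mouse, whereas Acaca and Fasn differ between mice.

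Levels differed widely between members. Per kilobase of exon, the mean level of Scd2 was the highest, at 53.9 CPM in rhodamine-positive and 43.5 CPM in rhodamine-negative sorts. It was followed by Acly (40.5 CPM per kilobase in rhodamine-positive and 32.4 in rhodamine-negative sorts) and Ebp (40.5 CPM per kilobase in rhodamine-positive and 30.0 in rhodamine-negative sorts). On the same scale Scd1 had 0.808 CPM per kilobase in rhodamine-positive and 2.04 in rhodamine-negative sorts, far below Scd2. Fads2 had 0.664 CPM per kilobase in rhodamine-positive and 1.20 in rhodamine-negative sorts, far below Fads1 at 19.7 in rhodamine-positive and 13.8 in rhodamine-negative sorts. In each of these pairs the gene that rose was the abundant one and the gene that fell the scarce one. Srebf1 had 13.3 CPM per kilobase in rhodamine-positive and 13.6 in rhodamine-negative sorts. Srebf2 stood below it in both, at 6.16 CPM per kilobase in rhodamine-positive and 11.2 in rhodamine-negative sorts.

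**Figure D5:**
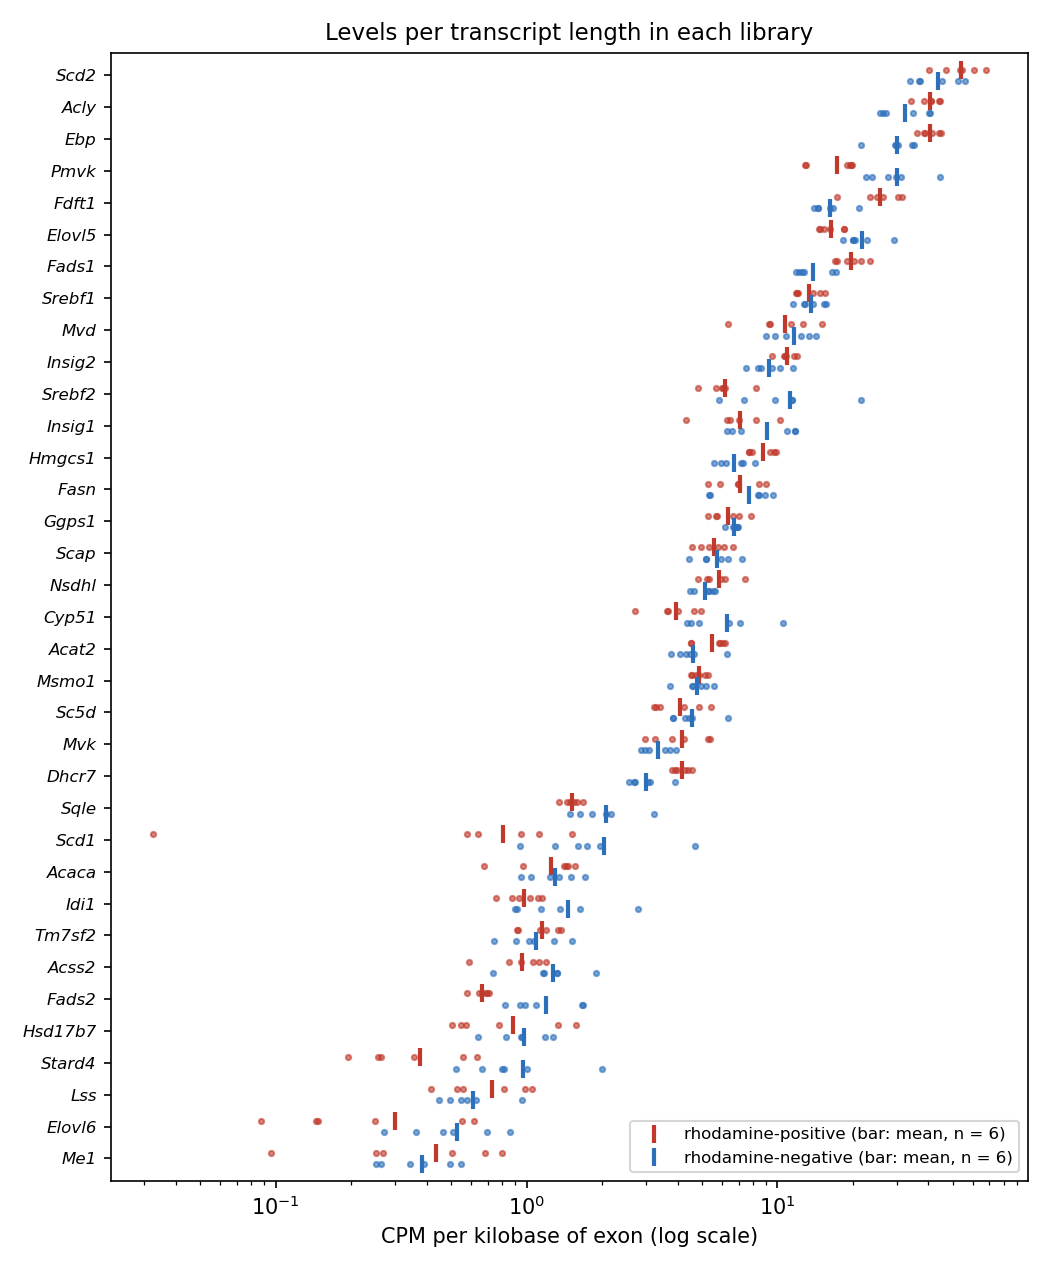
Level per kilobase of exon (CPM, log scale) of the 35 members in each library, rhodamine-positive in red above rhodamine-negative in blue; the bar is the mean of 6. Genes are ordered by the mean of both groups, with Scd2, Acly and Ebp at the top and Me1 and Elovl6 at the bottom; within the rhodamine-positive sorts Stard4 (0.377) lies below Me1 (0.434).

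Other genes of the pathway were counted against the same background of 13% higher and 13.2% lower among all genes. Of 26 other sterol and isoprenoid genes tested (27 listed), 8 were higher (30.8%) and 4 lower (15.4%), with a median of 0.12. The 4 with the smallest p among those that rose were Tmem97, an endoplasmic reticulum protein of sterol traffic, by 0.75 ± 0.12, Soat1, which esterifies cholesterol for storage, by 0.47 ± 0.08, Dhdds, a subunit of the dolichol-making prenyltransferase, by 0.41 ± 0.09, and Rdh11, a retinol dehydrogenase, by 0.62 ± 0.15 (SE). Soat1 averaged 269 CPM in rhodamine-positive and 194 CPM in rhodamine-negative sorts. The 4 that fell were Erlin1, an endoplasmic reticulum protein that restrains SREBP activation, by 0.47 (SE 0.14), Lbr, a sterol reductase of the nuclear envelope, by 0.56 (SE 0.17), Coq2, an enzyme of ubiquinone synthesis, by 0.75 (SE 0.24), and Mylip, a ubiquitin ligase that degrades lipoprotein receptors, by 0.24 (SE 0.08). In the rhodamine-negative sorts mouse 5 had the highest level of Erlin1 (72.8 CPM), Lbr (109 CPM) and Coq2 (25.1 CPM), and without it none of the 3 passed (-0.32, -0.41 and -0.50, adjusted p = 0.0582, 0.0729 and 0.0837). These calls were also lost without mouse 6 (adjusted p = 0.0669, 0.0595 and 0.0979). Erlin1 did not pass without mouse 1 (adjusted p = 0.0632), Lbr without mouse 2 or 3 (adjusted p = 0.0823 and 0.0653) and Coq2 without mouse 3 (adjusted p = 0.111). Mylip passed without mouse 5 and with no other mouse left out (adjusted p = 0.0730 to 0.112). In the whole list 6 were higher and 1 lower without mouse 5, against 10.6% and 10.4% of all genes. With no mouse block 4 were higher and 1 lower, against 8.46% and 9.31% of all genes. Scaled by library size alone, 3 were higher and 5 lower, against 5.67% and 20.9% of all genes, so that the balance of this list turned with the scaling.

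Of 32 other genes of fatty acid and lipid synthesis tested (37 listed), 13 were higher (40.6%) and 3 lower (9.38%), with a median of 0.19. The 4 with the smallest p were Idh1, a cytosolic source of NADPH, which rose by 0.67 ± 0.09, Hacd4 and Hsd17b12, which act in fatty acid elongation, by 0.68 ± 0.11 and 0.47 ± 0.08, and Slc25a1, which exports citrate from mitochondria, by 0.43 ± 0.09 (SE). Idh1 averaged 111 CPM in rhodamine-positive and 68.8 CPM in rhodamine-negative sorts. Besides Scd4, the genes that fell were Dgat1 and Dgat2, the enzymes of the last step of triglyceride synthesis, by 0.75 (SE 0.20) and 0.68 (SE 0.15). Dgat1 had 33.6 to 39.9 CPM in rhodamine-positive sorts and 41.0 to 163 CPM in rhodamine-negative sorts, the highest being mouse 5. Without this mouse Dgat1 fell by 0.49 and passed (adjusted p = 0.00912). Scd4 did not pass without mouse 2 (adjusted p = 0.0511). In the whole list 12 were higher and 3 lower without mouse 5, against 10.6% and 10.4% of all genes. Scaled by library size alone, 7 were higher and 3 lower, against 5.67% and 20.9% of all genes.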

How the data were processed

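The data are mRNA sequencing of sorted TAMs, 2 libraries from each of 6 mice. The authors deposited raw counts per gene (54532 genes) and a table of log2 normalized values (10605 genes, 35 of the 36 members); the 12 count files per library hold the same values as the count table. The submitters' processing notes name the build mm10 and, as tools, edgeR, limma, featureCounts 1.4.4, HISAT2 2.1.0, bcl2fastq 2.17 and cutadapt; their parameters and the strand setting are not given in the sources used here. The members and all gene lists were chosen with earlier results of these data known.

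Counts were filtered with filterByExpr (minimum count 10, minimum total 15), which left 15014 genes with at least 99% of the counts of each library, and scaled by TMM. CPM values were computed here from the deposited counts on that scale. Groups were compared by quasi-likelihood F tests (edgeR 4.0.16, R 4.3.3) in a model that holds a term per mouse, since the series text calls the sorts paired. SEs were obtained as the size of the log2 fold change over root F. As a check of the pairing, deviations from the group means correlated across genes with r = 0.226, 0.207, 0.289, 0.0775, 0.302 and 0.450 between the sorts of mice 1 to 6; the highest correlation with another mouse was 0.148 to 0.187, so that of mouse 4 was below it. The mice were separate animals, and no library copied another (lowest chi-square per degree of freedom within a group 19.5). Differences within a mouse used log2 CPM with a prior count of 2. Lengths, coordinates and overlaps are from GENCODE vM21 (mm10). Tested on simulated counts for this comparison, with 14765 genes, the test found 37 of 100 genes given a log2 change of 0.5 and 76 of 99 given one of 1, with 6 false calls of 119. The simulated counts held no differences between mice, and their spread depended on the mean level alone. These shares need not hold for the real libraries.

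Members were named as a whole, and of each list of other pathway genes, up to 4 per direction with the smallest p. Elovl1 and Fads3 were named in addition, beside the elongases and desaturases of the set, after their values were seen. The promoter of Fads2, next by size of fall, was replaced by that of Pmvk, because the Fads2 window lies in the gene as GENCODE annotates it. The planned comparison of protein sequences was not made. Other settings were no mouse block, DESeq2 1.42.0, limma-voom (limma 3.58.1), the deposited log2 table in limma, scaling by DESeq2 size factors or by library size, no filter and a stricter filter, an offset for gene length, an offset for GC content and gene length (chosen after seeing the data), the male mice, and leaving out each mouse.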

Additional observations from a re-analysis of the deposited data

Results flagged for a closer look

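In each group of 6 libraries, levels on the log2 scale were searched for a library that stood apart. A library was marked where its gap to the nearest other library took up more of the group's range than Dixon's 95% critical value for 6 samples allows. Values are printed below in CPM, and other libraries could be marked on that scale. This was so in 3 of 70 groups of the 35 members tested, and chance alone marks about 5% of groups. The rhodamine-negative library of mouse 5 stood below the others for Ebp, at 49.6 CPM, and above them for Sc5d, at 31 CPM. The rhodamine-positive library of mouse 6 stood below the others for Scd1, at 0.159 CPM, which is 2 counts. The rhodamine-negative library of mouse 5 had the highest summed level of dendritic cell markers (1852 CPM) and the lowest of microglia markers (6543 CPM) among the 12 libraries. It was also the highest for monocyte (1247 CPM), basophil and mast cell (457 CPM) and lymphocyte and NK markers (108 CPM). For macrophage and gate markers it was the lowest (4511 CPM). The part of these cells in the values of Ebp and Sc5d was not tested.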

How the results depend on the processing

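Of the 15 members called, Fdft1, Fads1 and Pmvk passed under all 17 other settings, and no called member changed sign in any of them. The replicate block (the mouse) was the main design, because both sorts came from the same animals; without the replicate block the fatty acid branch had 1 higher and 2 lower, the list of other sterol genes had 4 higher and 1 lower, and 1270 of all genes were higher. With library size alone 2 members were higher (1 in the sterol and 1 in the fatty acid branch), the sterol median was -0.10, the other sterol list had 3 higher and 5 lower and the other fatty acid list 7 higher and 3 lower, and of all genes 852 were higher and 3142 lower, with a median of -0.18. With no filter, all genes had a median of -0.32. In male mice alone 1 member was lower (1 in the sterol branch, 0 in the fatty acid branch, 0 among carrier and regulators); the other sterol list had 5 higher and 0 lower, the other fatty acid list 7 higher and 1 lower, and all genes 1005 higher and 1222 lower. Fewer mice enter that fit. The TMM factors, which library size alone leaves out, were 0.923 to 0.980 in rhodamine-positive and 1.02 to 1.15 in rhodamine-negative libraries. Leaving them out therefore moves the log2 fold changes down. The cause of the remaining changes was not tested. The sex interaction was called for 1 member in DESeq2 and for 3 without a filter. With each mouse left out in turn, 4 to 7 members were higher and 3 to 9 lower (sterol 3 to 4 and 2 to 2, fatty acid 1 to 3 and 0 to 4, carrier and regulators 0 to 0 and 1 to 3). All genes were 1257 to 1780 higher and 1421 to 1820 lower, with medians of -0.02 to -0.01; the branch medians were 0.02 to 0.09 (sterol) and -0.25 to 0.03 (fatty acid). The other sterol list had 5 to 8 higher and 0 to 3 lower, the other fatty acid list 10 to 12 and 2 to 3. Changes of sign were seen for members that were not called. With library size alone Tm7sf2 was -0.069, Msmo1 -0.13 and Me1 -0.15. In male mice Sc5d was 0.0054, Srebf1 0.016, Scap 0.12, Acaca 0.19 and Fasn 0.18. With the gene length offset Scap was 0.0085, Me1 -0.0061, Acaca 0.12 and Fasn 0.0070, with GC content added Scap was 0.00051 and Acaca 0.082, and in DESeq2 Me1 was -0.0081. With each mouse left out, Mvd was -0.19 to 0.0083, Tm7sf2 -0.026 to 0.20, Msmo1 -0.037 to 0.070, Scap -0.14 to 0.074, Me1 -0.15 to 0.22, Acaca -0.21 to 0.080 and Fasn -0.25 to 0.029. By total counts, depth limits Fdps (59 counts in all libraries together), Me1, Elovl6 and Fads2 most. Stard4 (14 to 171 counts per library) and Scd1 (2 to 351) were also low in some libraries.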
